A study of Mus musculus with 9 samples.

Results

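The 7 genes described here handle iron and heme: Fth1, Ftl1, Slc40a1, Slc11a1, Slc11a2, Tfrc and Hmox1. They were chosen by name for their function, with earlier results of these data known, out of 31053 genes counted per cell, and each had counts in the kept cells. Fth1 and Ftl1 encode the heavy and light chains of ferritin, the shell that stores iron in the cytosol, and the heavy chain oxidises iron on entry. Slc40a1 encodes ferroportin, the exporter of iron from cells. Slc11a1 (NRAMP1) and Slc11a2 (DMT1) encode proton-coupled metal transporters, the former of phagosomes and lysosomes of phagocytes, the latter of endosomes and the cell surface. Tfrc encodes the transferrin receptor, which takes up iron bound to transferrin. Hmox1 encodes heme oxygenase 1, which breaks heme down into iron, carbon monoxide and biliverdin.

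Macrophages store iron in ferritin and return it through ferroportin, and microglia are among the brain cells that hold ferritin. When iron is scarce, the iron regulatory proteins bind a hairpin in the messenger RNA, the iron-responsive element. In a 5′ UTR this hairpin lets them block translation, as in ferritin, and in the 3′ UTR of Tfrc it lets them protect the message from decay. RNA levels, which were measured here, therefore need not follow protein levels for these genes.

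The cells were CD11b+ cells sorted from mouse brain and profiled with 10x Genomics 3′ single-cell RNA-seq in 9 libraries. All mice were female C57BL/6J of 5 months. Ctrl mice were untreated (3 libraries, 1 brain each), and D0 mice had eaten a diet with 1200 mg/kg of PLX5622, which inhibits CSF1R, the receptor on which microglia depend, for 14 days (3 libraries, 2 pooled brains each). D2 mice had the same diet and then a control diet for 2 days (3 libraries, 2 pooled brains each). D0 and D2 microglia are therefore cells that remained after most had been lost, or that arose since, and microglia that changed and microglia that were lost or gained cannot be told apart.

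The iron-responsive elements are shown first because 4 of the 7 genes had a match to the pattern searched here. UTRs of all coding transcripts (GENCODE, GRCm38) were searched on the transcript strand for a C, 5 bases, the loop CAGTGN and 5 bases that pair with the 5 before the loop, with G-T pairs allowed. The capitals mark the 6 bases of the loop. Each ferritin gene and Slc40a1 had 1 match, in a 5′ UTR.

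Fth1, 5′ UTR, chr19:9982732-9982760, + strand: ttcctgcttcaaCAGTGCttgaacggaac
Ftl1, 5′ UTR, chr7:45459779-45459807, − strand: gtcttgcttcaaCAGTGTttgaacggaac
Slc40a1, 5′ UTR, chr1:45925465-45925493, − strand: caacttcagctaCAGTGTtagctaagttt

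Tfrc had 4 matches, which lie on the + strand of chromosome 16 within its 3′ UTR.

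Tfrc, 3′ UTR, chr16:32631219-32631247: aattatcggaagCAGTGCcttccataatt
Tfrc, 3′ UTR, chr16:32631598-32631626: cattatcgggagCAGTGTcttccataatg
Tfrc, 3′ UTR, chr16:32631663-32631691: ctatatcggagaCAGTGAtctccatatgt
Tfrc, 3′ UTR, chr16:32631710-32631738: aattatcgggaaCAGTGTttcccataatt

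Of 21901 coding genes, 160 (0.731%) had such a match in a UTR, 31 (0.142%) in a 5′ UTR and 129 (0.589%) in a 3′ UTR. The ferritin and transferrin receptor elements are textbook cases, so the matches describe these genes and are no finding about them. The element was not in every transcript of its gene: it was found in 4 of 5 coding transcripts of Fth1, in 1 of 2 of Ftl1, in 1 of 4 of Slc40a1 and in 1 of 3 of Tfrc. The 3′ counts used here do not tell which transcripts were present. UTRs of Slc11a1, Slc11a2 and Hmox1 had no match to this pattern of loop and paired bases, which says nothing of other forms of the element.

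The libraries held 20257894 to 61230741 UMIs (molecules counted once each), and pairs of libraries shared 0 to 7 barcodes. D2-3 stood apart: 37.3% of its barcodes exceeded 20000 UMIs, and it held 54 non-dividing microglia-like cells against 1173 or more in each other library. It was left out, as in the study, and its values are given only where named. The kept cells of the other 8 libraries comprised 22148 microglia-like cells, 1173 neutrophil-like, 903 endothelial-like, 613 dendritic cell-like, 569 border-associated macrophage-like, 520 monocyte-like, 303 mural-like, 192 ependymal and choroid plexus-like, 159 astroglial-like and 124 lymphoid-like cells. A further 1951 cells, with few UMIs, stayed unnamed. In non-dividing microglia-like cells, 12 of 12 microglia markers exceeded 20 CPM (UMIs of a gene per 1000000 UMIs of the class in a library) in every library. Their summed level ranged between 31625 and 37005 CPM in Ctrl, between 23607 and 26838 in D0, and between 19931 and 21299 in D2, so the marker level differed between groups. The border-associated macrophage-like cluster also had 12 of 12 of these markers at 100 CPM or more, so their presence does not test the label.

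Levels across the named cell classes are given gene by gene as mean CPM over libraries with at least 20 cells of a class. They are a description with no test, since the classes were drawn from the same cells, although the 7 genes took no part in the clustering. Endothelial, mural, astroglial and lymphoid cells are not the target of a CD11b sort, and those that passed it may not stand for all cells of their kind.

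Among named classes, both ferritin chains had their highest mean level in border-associated macrophage-like cells, the macrophages of the meninges and vessel walls. Fth1 stood there at 11147 ± 4419 CPM (SD, n = 5 libraries), followed by dendritic cell-like cells at 7483 ± 897 (n = 7), neutrophil-like cells at 6701 ± 1788 (n = 7) and microglia-like cells at 5919 ± 1783 (n = 8). The lowest Fth1 levels were those of endothelial-like cells, 2468 ± 520 (n = 8), and lymphoid-like cells, 1742 ± 155 (n = 2). This order of means does not hold within each group. In D2, Fth1 in microglia-like cells (7236 and 7086 CPM) lay above dendritic cell-like (6633 and 6986) and neutrophil-like cells (4170 and 4917), while in Ctrl it lay below both classes, at 3573 to 4135 CPM. Every pair of neighbours in the order of Fth1 levels had overlapping ranges. Ftl1 ran from 7057 ± 2090 CPM in border-associated macrophage-like cells through 5457 ± 688 in monocyte-like, 4288 ± 1231 in neutrophil-like, 4223 ± 928 in microglia-like and 3648 ± 553 in dendritic cell-like cells. The next class, astroglial-like cells at 1754 ± 850 (n = 2), did not overlap with dendritic cell-like cells, so the 5 myeloid classes stood above the other named classes for this chain. Reads of Ftl1 can also match its near-identical copy Ftl1-ps1, which was counted at 36.6 CPM in microglia-like cells. Unnamed cells, which take no place in these orders, had 9229 ± 1846 CPM of Fth1 and 6029 ± 1289 of Ftl1 (n = 8). With UMIs summed over libraries, they had 9563 CPM of Fth1 and 6261 of Ftl1. Border-associated macrophage-like cells then had 9564 and 6208.5 CPM.

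The exporter Slc40a1 was highest outside the myeloid cells. Endothelial-like cells, which move iron across the blood-brain barrier, had 302 ± 99.7 CPM (SD, n = 8), with a lowest library of 214, and did not overlap with the next class. Neutrophil-like cells had 123 ± 56.0, microglia-like cells 116 ± 38.8 and border-associated macrophage-like cells 110 ± 61.6 CPM, which overlapped. Mural-like cells followed at 18.0, and monocyte-like cells had 6.41 ± 8.64 CPM. After each cell was thinned to 2000 UMIs, the share of cells with a Slc40a1 UMI averaged 39.3% in endothelial-like, 22.1% in non-dividing microglia-like, 1.73% in dendritic cell-like and 0.934% in monocyte-like cells. Without thinning these shares were 54.7%, 50.7%, 6.64% and 2.66%. Dendritic cell-like and monocyte-like cells came from the same libraries. The part of free RNA in any of these shares was not tested.

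Tfrc had its highest level in the same endothelial-like cells. Its level there was 358, 230 and 275 CPM in the Ctrl libraries, 271, 251 and 363 in D0 and 156 and 201 in D2. Astroglial-like cells had 76.7 ± 6.84 CPM (SD, n = 2), mural-like cells 24.2 ± 12.6 (n = 6) and microglia-like cells 7.80 ± 4.56 (n = 8). The share of cells with a Tfrc UMI after thinning was 35.6% in endothelial-like cells and 1.48% in non-dividing microglia-like cells against 0.700% in dendritic cell-like cells, at the same depth of 2000 UMIs per cell.

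Of the metal transporters, Slc11a1 had its highest mean levels in 4 of the 5 myeloid classes. It stood at 159 ± 21.3 CPM in microglia-like, 152 ± 27.4 in border-associated macrophage-like, 111 ± 66.0 in monocyte-like and 89.5 ± 51.2 in neutrophil-like cells, and at 10.8 ± 6.22 in endothelial-like cells. These 4 overlapped with their neighbours among themselves. The fourth, neutrophil-like cells, had a lowest library of 38.9 CPM, just above the single library of ependymal and choroid plexus-like cells at 38.6. The highest libraries of astroglial-like (61.2 CPM) and mural-like cells (41.9 CPM) lay above that lowest neutrophil-like library. Dendritic cell-like cells, the fifth myeloid class, had 24.4 ± 6.80 CPM, below astroglial-like (35.1) and mural-like cells (28.6), with overlapping ranges. Slc11a2 was low throughout, with 41.8 ± 45.1 CPM in border-associated macrophage-like cells, where the SD exceeded the mean, 12.8 ± 1.86 in microglia-like cells and 1.89 ± 1.81 in neutrophil-like cells. Hmox1 led in monocyte-like cells at 124 ± 41.2 CPM, with 94.3 ± 47.0 in border-associated macrophage-like cells and 76.6 ± 31.1 in microglia-like cells. Dendritic cell-like cells had 23.3 ± 9.10 CPM. In lymphoid-like cells Hmox1 had 0 UMIs of 643098, which allows up to 4.66 CPM by counting error alone.

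**Figure D1:**
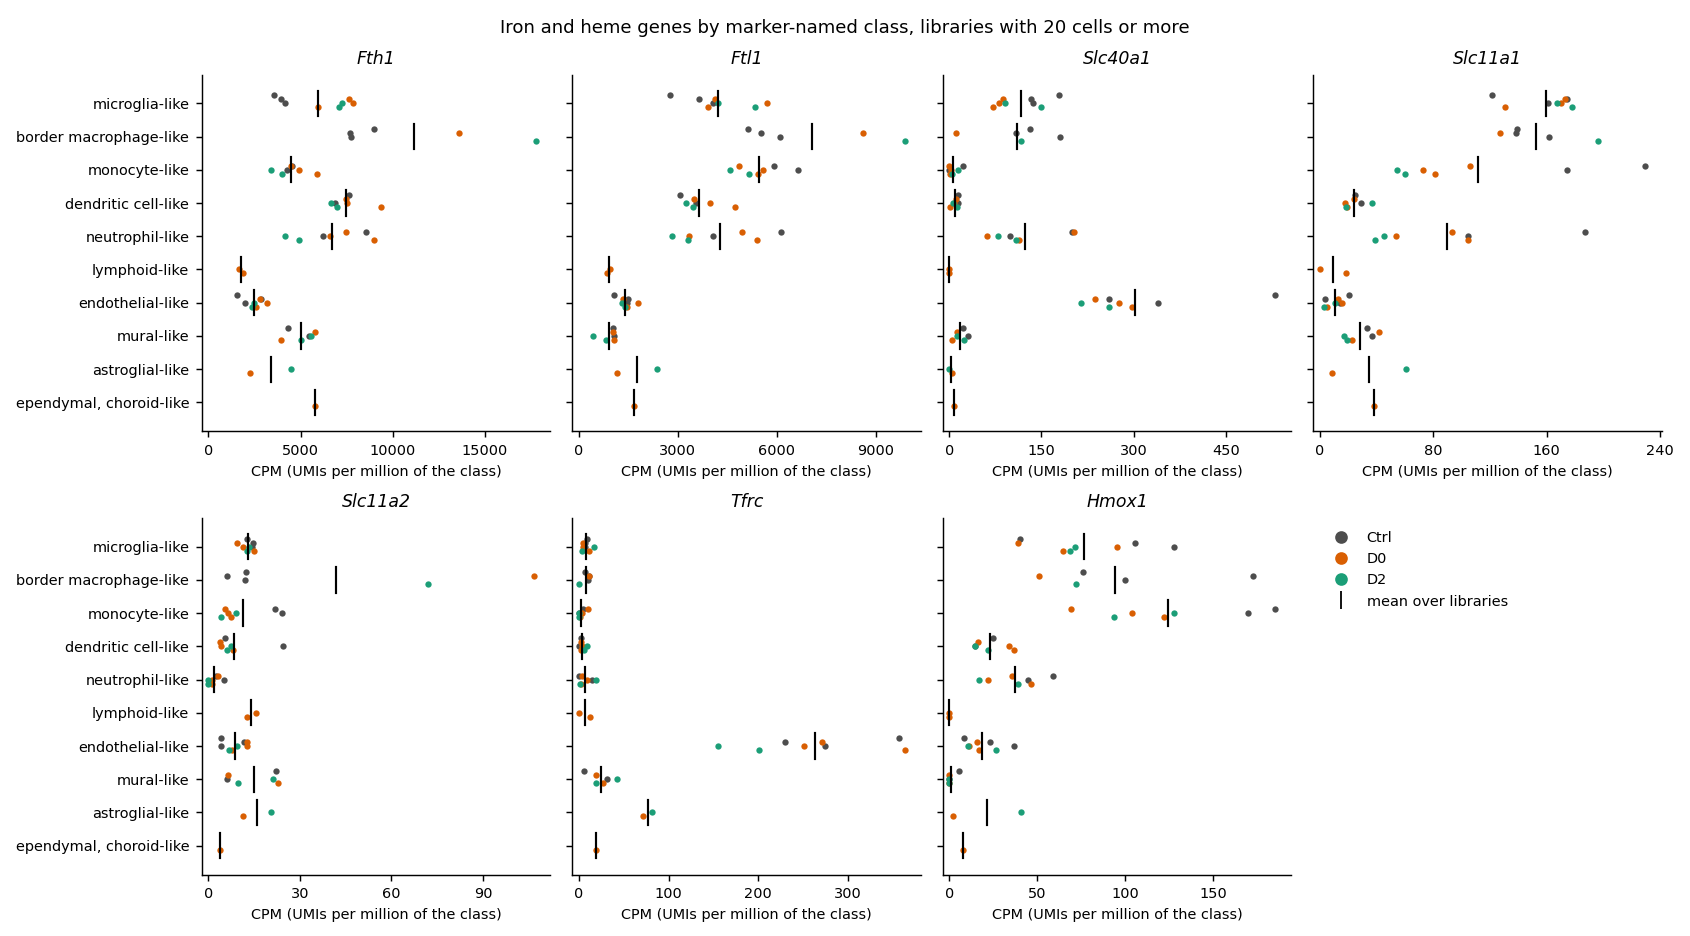
Level of each of the 7 genes (CPM, linear axes that differ between panels) by cell class, 1 point per library with at least 20 cells of the class, coloured by group, with a vertical bar at the mean over libraries. Ferritin levels have their highest mean in border-associated macrophage-like cells, and Slc40a1 and Tfrc stand apart in endothelial-like cells.

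Within microglia, the comparison of treated and untreated brains used non-dividing cells, because Ctrl libraries held 5 to 12 dividing cells each. Dividing cells were those with UMIs of at least 2 of 8 mitotic genes. Cells that copy their DNA need not express these, and cluster 11, led by DNA replication genes such as Mcm6 and Mcm5, stayed among the non-dividing cells, of which it made up 25.6% in D2-1, 15.6% in D0-3 and 1.33% or less in the other 6 libraries. Results were therefore also computed without it, an alternative chosen after seeing the data. UMIs were summed per library and tested over all genes with edgeR's quasi-likelihood test. The heavy chain of ferritin was the one gene of the 7 that was called, and it rose about 2-fold in both D0 and D2. All 7 genes passed the filter on low counts. Of the 7, 1 was called between D0 and Ctrl, against 8.74% of the 12224 genes tested (6.45% higher, 2.28% lower), and 1 between D2 and Ctrl, against 10.6% (6.4% higher, 4.16% lower). The D0 and D2 comparisons share the Ctrl libraries, so their likeness is not independent evidence.

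Fth1 was at 3561, 3932 and 4133 CPM in the Ctrl libraries, at 7715, 8006 and 6065 in D0 and at 7241 and 7371 in D2. Every treated library lay above every Ctrl library. The log2 difference from Ctrl was 1.14 (SE 0.14, adjusted p = 0.0012) in D0, a 2.20-fold rise, and 1.03 (SE 0.15, adjusted p = 0.0032) in D2, a 2.04-fold rise. Both calls held in 24 of 24 alternative settings, including the removal of each library in turn, in which the D0 difference ranged from 1.03 to 1.25. Ctrl-2 and Ctrl-3 were counted with Cell Ranger 3.1.0 per the file headers and the other 6 libraries used here with 3.0.2. With the version as a term the Fth1 differences were 1.33 in D0 (adjusted p = 0.0122) and 1.22 in D2 (adjusted p = 0.0200), and Ctrl-1 lay below every treated library of its own version.

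The light chain was not called. Ftl1 was at 2757, 3651 and 4071 CPM in Ctrl, at 4206, 5917 and 4026 in D0 and at 4106 and 5531 in D2. The D0 and Ctrl libraries overlapped, and the differences were 0.67 (SE 0.22, adjusted p = 0.0997) in D0 and 0.58 (SE 0.25, adjusted p = 0.177) in D2. With the replicate number as a block, which pairs Ctrl and D0 libraries, the D0 difference of Ftl1 passed the threshold at 0.67 (adjusted p = 0.0241). DESeq2 (0.69, adjusted p = 0.0305) and edgeR with no filter on low counts (0.66, adjusted p = 0.0115) also called it, and the other 21 of 24 alternatives did not. Its D0 difference ranged from 0.43 without D0-2 to 1.09 with a term for the Cell Ranger version.

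The exporter Slc40a1 was lower in each D0 library than in each Ctrl library, but the difference was not called. It was at 179, 133 and 137 CPM in Ctrl, at 94.1, 97.1 and 79.2 in D0 and at 100 and 196 in D2. Of the 7 genes, 2 had D0 libraries that did not overlap with Ctrl, Fth1 above and Slc40a1 below, against 8.59% of all genes above and 36.4% below. In D2 there were 2, Fth1 and Ftl1, both above, against 13.4% above and 32.3% below. The D0 difference of Slc40a1 was −0.49 (SE 0.23, adjusted p = 0.222), and that of D2 was 0.11 (SE 0.26, adjusted p = 0.823), with D2-1 below and D2-2 above every Ctrl library. D2-3, which was left out, had 8.29 CPM. When dividing cells were included, the D0 difference became −0.70 and was called (adjusted p = 0.0302).

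The other uptake and breakdown genes were not called in either comparison. Slc11a1 was at 121, 174 and 161 CPM in Ctrl, at 176, 179 and 133 in D0 and at 169 and 190 in D2, a difference of 0.32 (SE 0.19, adjusted p = 0.322) in D0. Slc11a2 lay between 9.83 and 14.7 CPM in all 8 libraries, with a D0 difference of 0.05 (SE 0.18). Tfrc was at 8.8, 6.4 and 6.5 CPM in Ctrl, at 4.5, 3.9 and 10.3 in D0 and at 19.9 and 3.0 in D2, so that its D2 difference of 0.81 (SE 0.60, adjusted p = 0.443) rested on D2-1 and became −1.13 without it. In D2-1, 212 of the 315 Tfrc UMIs of non-dividing cells came from the 653 cells of cluster 11, at 38.8 CPM, against 9.92 CPM in its other cells. In D0-3, the highest D0 library, cluster 11 had 20.8 CPM and the other cells 7.90. Without cluster 11 the D2 difference of Tfrc was −0.04 (adjusted p = 0.956).

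Hmox1, which many stresses induce, varied as much within groups as between them. It was at 40.2, 106 and 128 CPM in Ctrl, at 41.5, 109 and 74.0 in D0 and at 74.7 and 72.9 in D2, and its D0 difference was −0.04 (SE 0.44, adjusted p = 0.964). The summed level of 10 genes known to respond to tissue dissociation, all present in every library, was low in the same Ctrl-1 and D0-1, at 7122, 9353 and 9990 CPM in Ctrl, 6350, 10210 and 9685 in D0 and 8186 and 7086 in D2. Its part in the Hmox1 levels was not tested.

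D2 and D0 were also compared directly. None of the 7 genes was called, against 0% of all genes, higher or lower, by edgeR, where 812 genes had an unadjusted p under 0.05 and DESeq2 called 19. Libraries did not overlap for 1 of the 7, Slc40a1, with D2 above D0, against 17.6% of all genes above and 6.68% below. Slc40a1 also had the smallest p of the 7 (difference 0.60, SE 0.25, unadjusted p = 0.041, adjusted p = 0.703), but 1 library decided its size: the difference was 0.013 without D2-2 and 1.04 without D2-1. Fth1 differed by −0.11 (SE 0.15).

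**Figure D2:**
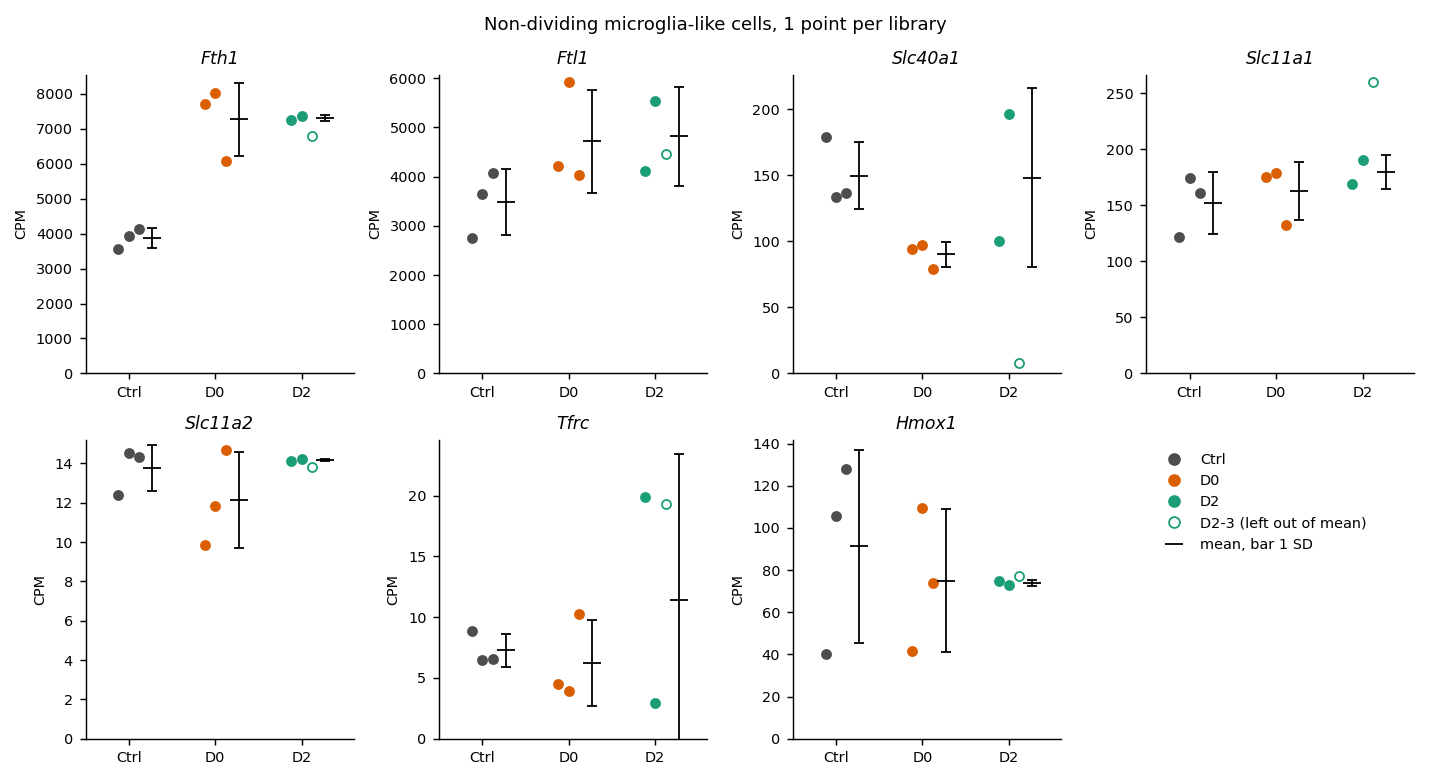
Level of each gene (CPM) in non-dividing microglia-like cells, 1 point per library by group, with the mean and 1 SD beside the points (the SD of Tfrc in D2 runs past 0) and an open point for D2-3, which is in no mean. Fth1 is at 6065 CPM or more in every D0 and D2 library and at 4133 or less in every Ctrl library.

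Scaling moved the size of these differences. On plain CPM the median of all genes was −0.27 in D0 against Ctrl, compared with −0.04 after the TMM scaling of the test. On CPM the D0 differences were 0.90 for Fth1, 0.43 for Ftl1 and −0.73 for Slc40a1, each to be read against that median, and the signs of these 3 genes were as with TMM. The small D0 differences of Slc11a2 and Hmox1 were −0.20 and −0.23 on CPM.

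Ctrl microglia fell largely into other clusters than D0 and D2 microglia, so the levels were also compared inside clusters. Clusters 1, 2 and 7 held 29.8%, 28.1% and 19.4% of non-dividing Ctrl cells and at most 4.24% each of D0 or D2 cells. The largest shares of D0 cells were in clusters 4, 6 and 3 (24.8%, 19.2% and 18.5%). Those of D2 cells were in clusters 5, 3 and 11 (26.6%, 21.1% and 17.6%). Cluster 5 also held 13.8% of D0 cells, so that D0 and D2 shared clusters 3 and 5. The shares pool the libraries of a group, and of the D2 cells in cluster 11, 653 came from D2-1 and 2 from D2-2. Unlike these shares, the levels inside clusters are over all microglia-like cells of a cluster, dividing cells included, and dividing cells were few in Ctrl. Fth1 was higher in D0 than in Ctrl without overlap in 8 of 8 clusters with at least 2 libraries of 20 cells in both groups, and higher in D2 in 6 of 6.

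The level of Fth1 also differed between clusters. In cluster 7, led by Csmd3, Nav3 and Bank1, Ctrl libraries ranged from 2843 to 2857 CPM, those of D0 from 3666 to 4759 and those of D2 from 3011 to 3936. In cluster 10, led by the immediate-early genes Egr1 and Fosb, Ctrl spanned 2914 to 3302 CPM, D0 4700 to 5486 and D2 5660 to 6204. In cluster 6, led by the inflammatory genes Tnf, Cxcl2 and Il1b, they were 6427 to 6847, 7906 to 10058 and 10273 to 10545. Of these, cluster 6 had the highest and cluster 7 the lowest mean in each group.

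Slc40a1 differed between clusters, while groups overlapped within most of them. Cluster 7 spanned 198 to 216 CPM in Ctrl, and for D0 and D2 it spanned 172 to 229 and 181 to 239, and cluster 6 had 43.0 to 59.1, 46.1 to 53.6 and 36.4 to 64.3, so that groups overlapped within either cluster while the clusters did not. D0 was below Ctrl without overlap in 3 of 8 clusters and overlapped in 5. Ftl1 was higher in D0 without overlap in 4 of 8 clusters and in D2 in 4 of 6. The share of all genes without overlap inside clusters was not computed, so the cluster counts of Fth1, Slc40a1 and Ftl1 have none beside them. These are descriptions with no test, since clusters were drawn from the same cells, and a cluster may hold different mixtures in each group. Dividing cells, which had less Slc40a1, are part of these levels and came mostly from D0 and D2.

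**Figure D3:**
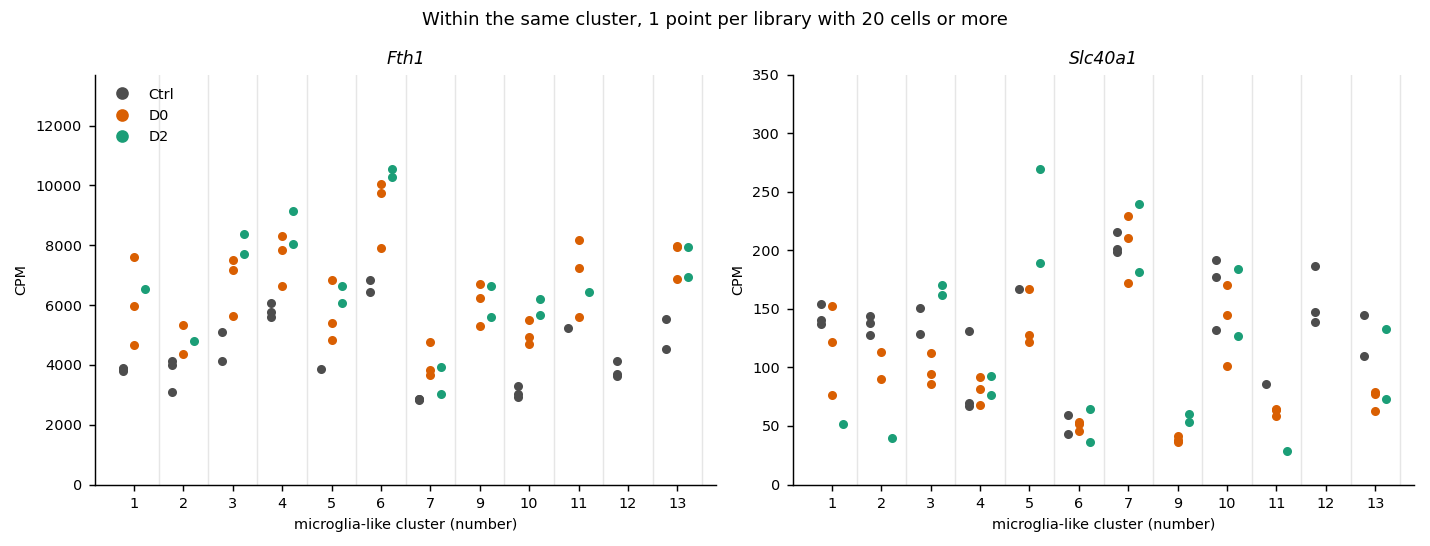
Level of Fth1 and Slc40a1 (CPM) within each microglia-like cluster, dividing cells included, by cluster number, 1 point per library with at least 20 cells in it, coloured by group. Fth1 of D0 lies above Ctrl in 8 of 8 clusters compared, whereas Slc40a1 of D0 overlaps with Ctrl in 5 of 8.

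Dividing microglia were compared with the other microglia of the same libraries, so that each library served as its own reference. There were 244, 886 and 407 dividing cells in the D0 libraries and 497 and 382 in D2. The other cells include cluster 11, so that the contrast is one of mitotic with all other cells. Dividing cells had less ferroportin RNA, less Hmox1 and, by a small margin, less Slc11a2, while their ferritin levels were close to those of the other cells. Of the 7 genes, 3 were called, all lower, against 22.2% of 11178 genes called lower, 21.8% called higher and 44% in either direction, so that a call is common in this comparison.

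Slc40a1 was at 36.6, 40.6 and 52.1 CPM in dividing cells of D0 and at 53.2 and 44.7 in D2, against 94.1, 97.1, 79.2, 100 and 196 in the other microglia of the same libraries. Every dividing sum was lower than every other sum, which was so for 8.49% of all genes, with 11.8% in the other direction. The difference was −1.23 (SE 0.16, adjusted p = 0.00016), it was called in 20 of 20 alternative settings, and it was −1.06 in D0 and −1.44 in D2 taken alone. The thinned share of cells with a Slc40a1 UMI was 7.10% in dividing and 17.3% in other cells of D0, and 7.82% and 24.7% in D2.

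Hmox1 was at 22.6, 61.3 and 41.0 CPM in dividing cells of D0 and at 56.8 and 59.4 in D2, below the other cells of its own library in 5 of 5. The share of all genes lower in 5 of 5 libraries was not computed. It fell by 0.63 on the log2 scale (SE 0.12, adjusted p = 0.0013). The call was lost with D2 libraries alone (−0.27, adjusted p = 0.465) and without the library block (−0.61, adjusted p = 0.127). Of the dissociation genes, 6 of 10 were called lower, against 22.2% of all genes, among them the heat shock genes Hspa1b (−1.28) and Hspa1a (−1.24), and their summed level was 4893 to 7582 CPM in dividing cells. Their part in the Hmox1 difference was not tested.

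Slc11a2 fell by 0.38 (SE 0.14, adjusted p = 0.0409), from 9.83, 11.8, 14.7, 14.1 and 14.2 CPM to 6.1, 9.8, 15.4, 9.0 and 8.6, with D0-3 going the other way, and kept its call in 9 of 20 settings. Slc11a1 differed by −0.18 (SE 0.07, adjusted p = 0.0605), and by −0.23 (adjusted p = 0.0044) without cluster 11. Fth1 was at 6953, 7372, 5650, 7215 and 6443 CPM in dividing cells, each below the other cells of its own library. Its difference was −0.10 (SE 0.06, adjusted p = 0.233), and Ftl1 differed by −0.09 (SE 0.08, adjusted p = 0.364). Over 20 alternative settings Fth1 ranged from −0.24 to 0.016 and was called in 2. Ftl1 ranged from −0.29 to 0.085 and was called in 3. Tfrc, which dividing cells of many kinds are known to raise, differed by −0.10 (SE 0.35, adjusted p = 0.842). Without D2-1 its difference was 0.46 (adjusted p = 0.0289), so that 1 library decided both sign and call. Without cluster 11, which holds most Tfrc UMIs of the other cells of D2-1, it was 0.27 (adjusted p = 0.341).

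**Figure D4:**
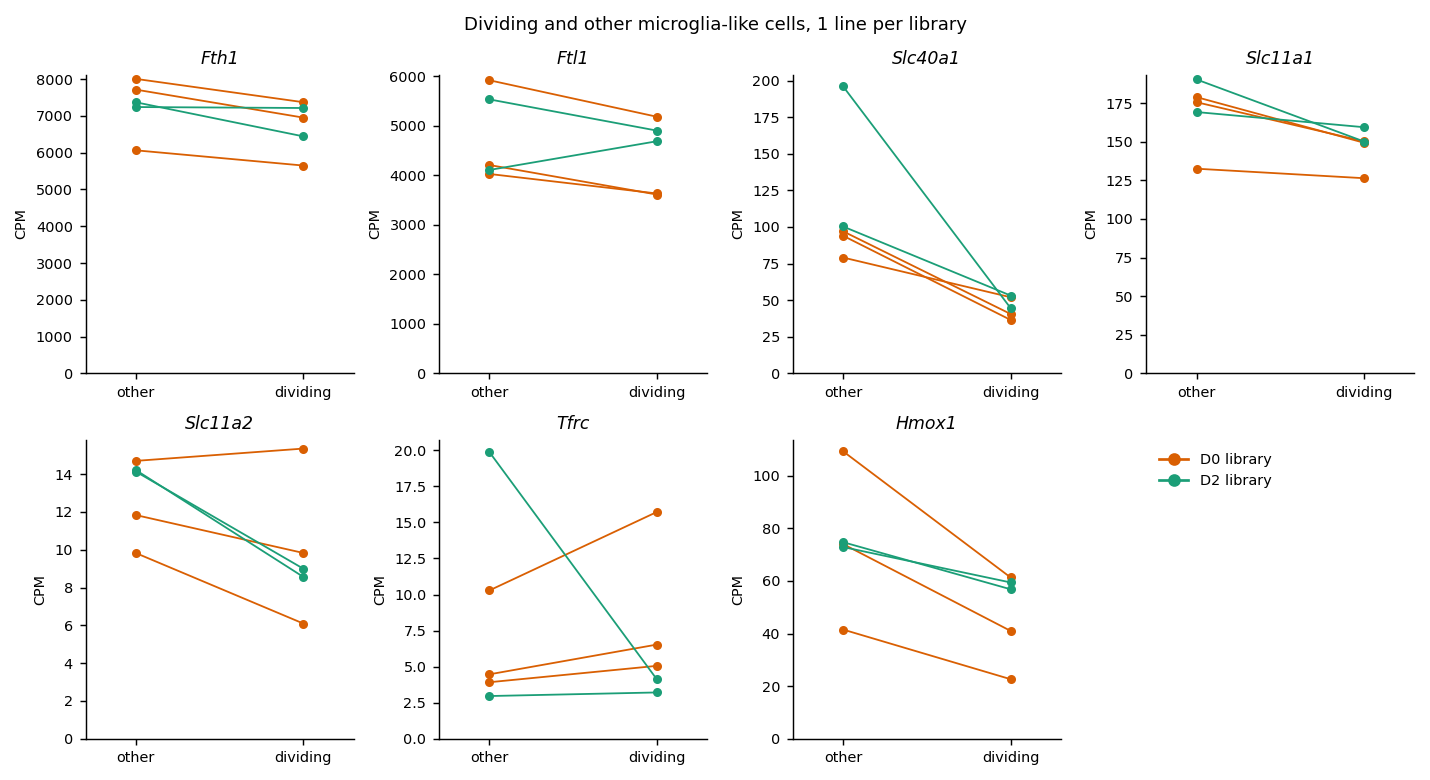
Level of each gene (CPM) in the other and the dividing microglia-like cells of 3 D0 and 2 D2 libraries, with a line joining the sums of 1 library. Fth1, Slc40a1 and Hmox1 are each lower in the dividing cells of 5 of 5 libraries, Fth1 by a small margin that was not called. Tfrc is lower in D2-1 alone.

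Border-associated macrophages are known for the uptake of heme and iron, and they had the highest mean ferritin levels of the named classes. They were also rare after treatment: the Ctrl libraries held 183, 72 and 185 such cells, D0 75, 12 and 8, and D2 14 and 20. With the planned minimum of 20 cells only D0-1 and D2-2 remained, which gives no test, so the comparison was fitted with libraries of at least 10 cells, a limit chosen after seeing the data. In it, 6 of the 7 genes passed the filter (Tfrc did not), and 1 was called between D0 and Ctrl, against 1.19% of 6403 genes (0.672% higher, 0.515% lower). D0-3, with 8 cells, entered no test. None was called between D2 and Ctrl, against 0%, where 635 genes had an unadjusted p under 0.05 and no other tool was run.

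Both ferritin chains were higher in each treated library than in each Ctrl library. Over the tested libraries, 3 of the 6 genes lay above Ctrl without overlap in D0, against 9.46% of all genes, and 1 below, against 26%. In D2, 3 lay above, against 15.2%, and none below, against 20.4%. Fth1 was at 8974, 7660 and 7745 CPM in Ctrl, at 13609, 16218 and 17604 in D0 and at 13903 and 17750 in D2. The D0 difference was 1.07 (SE 0.27, adjusted p = 0.0765), close in size to that of microglia but not called, and that of D2 was 0.94 (SE 0.27, adjusted p = 0.307). Ftl1 was at 5125, 5527 and 6114 CPM in Ctrl, at 8620, 7970 and 9421 in D0 and at 7177 and 9897 in D2, a D0 difference of 0.75 (SE 0.27, adjusted p = 0.196).

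Slc11a2 was the gene called. It was at 12.2, 6.2 and 12.1 CPM in Ctrl, from 18, 4 and 18 UMIs, and at 107, 16.9 and 27.2 in D0, from 48, 2 and 2 UMIs. D2 libraries had 71.1 and 71.8 CPM from 6 and 11 UMIs. The D0 difference was 2.99 (SE 0.47, adjusted p = 0.0217), but without D0-1 it was 0.84 (adjusted p = 0.824), and with the replicate block it was 2.96 and not called (adjusted p = 0.185). The call was also lost when any of the Ctrl libraries was left out (2.81 to 3.11). The D2 difference was 2.70 (SE 0.62, adjusted p = 0.261).

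Slc40a1 was lowest in D0-1, with 11.1 CPM from 5 UMIs. The other D0 libraries had 92.9 and 40.8 CPM, Ctrl 132, 109 and 180, and D2 47.4 and 118. Its D0 difference was −1.84 (SE 0.69, adjusted p = 0.222), and it was −0.41 without D0-1 and −3.51 (adjusted p = 0.0018) without D0-2. The hemoglobin scavenger receptor Cd163, a gene of this cell type, fell by 3.58 (adjusted p = 0.0438). Its call was lost with the block (−3.31, adjusted p = 0.216), without D0-1 (−2.35) and without any of the Ctrl libraries (−3.30 to −3.85).

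D0-1 decides the values of Slc11a2 and Slc40a1, and its cells carried less of the class markers. The 10 markers summed to 1468 CPM in it, with 5 of them at 20 CPM or more and Lyve1 at 0, against 3324 to 4683 CPM with 10 of 10 in the Ctrl libraries. D2-2 had 3009 CPM with 9 of 10, Lyve1 again at 0. Their part in the differences of either gene was not tested.

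The D0 differences of these macrophages and of non-dividing microglia were compared with an interaction term over both sums of Ctrl-1, Ctrl-2, Ctrl-3 and D0-1, the libraries with 20 cells of each kind, so that D0 rests on 1 library. That library is assumed to vary as the Ctrl libraries do, no spread between D0 libraries enters the p-values, and the values over these libraries describe D0-1 against Ctrl rather than an effect of D0. Of the 7 genes, 2 passed the threshold, against 9.52% of 12460 genes (4.17% higher, 5.35% lower): Slc11a2 at 3.73 and Slc40a1 at −3.02. For Slc11a2 the call was lost after thinning (1.97) and with the coarser clustering (0.83, adjusted p = 0.490), which put other cells into the class. There the class held 163, 196 and 119 cells in D0, against 75, 12 and 8 in the clustering used. In Ctrl it held 211, 99 and 208, against 183, 72 and 185. That fit is therefore not a contrast of the same cells. With libraries of at least 10 cells, the difference of Slc11a2 was 3.13 (adjusted p = 0.0005) and that of Slc40a1 was −1.63 and not called (adjusted p = 0.0755). For Fth1 it was −0.28 (SE 0.21, adjusted p = 0.524), and −0.39 and called without Ctrl-3 (adjusted p = 0.0135).

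**Figure D5:**
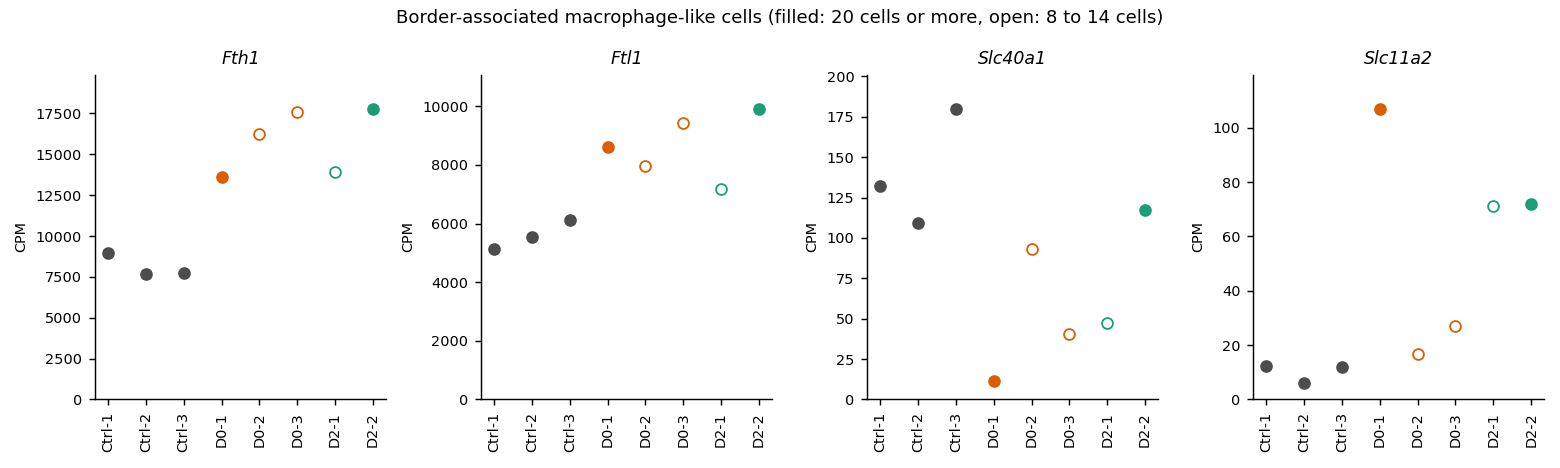
Level of Fth1, Ftl1, Slc40a1 and Slc11a2 (CPM) in border-associated macrophage-like cells by library, filled for libraries with at least 20 such cells and open for those with 8 to 14. Fth1 and Ftl1 are higher in every treated library than in every Ctrl library, and D0-1 has the highest Slc11a2 and the lowest Slc40a1.

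The other genes of iron and heme metabolism were 57 genes in 7 lists, whose counts of calls are given beside the share of all genes called in the same direction. Between D0 and Ctrl, 42 passed the filter, 4 rose, against 6.45% of all genes, and none fell, against 2.28%, and their median was −0.02 against −0.04 over all genes. Between D2 and Ctrl, 4 of 42 rose, against 6.4%, and 2 fell, against 4.16%, with a median of −0.05 against −0.01. Between D2 and D0 none was called by edgeR. Of 41 tested in dividing cells, 8 rose, against 21.8%, and 8 fell, against 22.2%, with a median of −0.11 against −0.04.

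Pcbp2, a chaperone that delivers iron to ferritin, was higher in D0 (195 ± 6.18 CPM against 156 ± 2.07 in Ctrl, SD, n = 3 each; difference 0.56, adjusted p = 0.0074) and in D2 (194 ± 5.48, n = 2; 0.43, adjusted p = 0.0318), and higher again in dividing cells (0.39, adjusted p = 0.0010). On plain CPM its D0 difference was 0.32. In D2, the iron-sulfur scaffold gene Iscu fell from 216 ± 7.98 to 117 ± 14.9 CPM (−0.77, adjusted p = 0.0073), and Ppox, of the heme pathway, fell by 0.67. None of the 8 heme synthesis genes tested was called in D0.

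In dividing cells the heme synthesis gene Urod (0.34) and the porphyrin and heme exporter Abcg2 (0.26) rose. The heme and folate transporter Slc46a1 (−0.68), the ferritin turnover receptor Ncoa4 (−0.56) and the mitochondrial iron importer Slc25a37 (−0.52) fell. These 5 were all called by edgeR at 20 CPM or more in the higher group.

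Other calls of the lists were at low levels. Lcn2 and Ltf, granule proteins of neutrophils that bind iron or its carriers, rose by 5.02 and 4.09 in D0, from 0.121 and 0.0797 to 3.17 and 1.23 CPM. The 9 neutrophil markers, Ltf among them, summed to between 5.80 and 14.7 CPM in Ctrl, between 48.8 and 192 in D0, and between 53.3 and 203 in D2 in the same sums of microglia-like cells, and the part of neutrophil RNA in these 2 genes was not tested. Cp, ceruloplasmin, which oxidises exported iron, rose from 0.813 to 2.93 CPM in D0 (2.03, adjusted p = 0.0448) and to 8.43 in D2 (3.43, adjusted p = 0.0058). Erythroid markers summed to at most 0.319 CPM in any of these libraries.

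Of 8 targets of NRF2, the factor that drives Hmox1 under oxidative stress, 7 were tested, and the shares of all genes called are as given for the iron lists. In D0, Prdx1 (0.41) and, at low level, Slc7a11 (1.40) rose and none fell, while in D2 Gclc fell by 0.77 and none rose. In dividing cells 2 rose, Prdx1 by 0.65, and 1 fell. Of the 10 dissociation genes, Ier2 (0.89), Fos (0.70) and Zfp36 (0.66) rose in D0, and Ier2 (0.91) in D2.

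The genes most like each of the 7 in their levels over 11 classes, with dividing and non-dividing microglia-like cells counted apart, were sought among 11124 genes at 20 CPM or more in a class. Pearson r on log2(CPM + 10) describes likeness over 11 points that share libraries and carries no test. Tfrc was most like Fmo1 and Mcc (r = 0.99 each), and Hmox1 like Lyn (0.95) and Atp6v1b2 (0.94). Slc11a1 was most like Tlr7 (0.95) and Ppt1 (0.93), Slc40a1 like Mtmr6 (0.92) and Sipa1l2 (0.91), Fth1 like B4galt6 and Tnfaip8 (0.90 each), and Slc11a2 like Zdhhc6 (0.86) and Wdr36 (0.84). Lrrc25 (0.97) was among the genes most like Ftl1.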

How the data were processed

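Per library, the authors deposited raw UMI counts per gene and barcode. The submitters' processing notes name Cell Ranger 3.1.0 and mm10, and the file headers name 3.0.2 in 6 libraries and 3.1.0 in Ctrl-2, Ctrl-3 and D2-3. The limits of the study were applied to barcodes: 500 to 20000 UMIs, 200 genes or more, and mitochondrial UMIs up to 10%. Kept cells were clustered with scanpy 1.11.5 and leidenalg 0.10.2 (Python 3.11.15) on 10 components of 3000 variable genes, with 20 neighbours and a resolution of 0.6, without 71 iron, heme and related genes. Clusters were named "-like" from marker lists. These names may not match those the study gave, and clusters with few UMIs stayed unnamed. D2-3 and cells over 20000 UMIs were placed by their 30 nearest neighbours, in alternatives alone. Scrublet marked 59 of 30463 cells (0.194%), too few to have worked, so no doublets were removed, and the top 4% of scores were removed as an alternative.

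For each class, the UMIs of a library's cells (20 or more) were added up. The quasi-likelihood test of edgeR 4.0.16 in R 4.3.3, after filterByExpr and TMM scaling, was run on these sums in 1 fit of the 3 groups, with Benjamini-Hochberg adjustment over all genes tested and calls under 0.05. Dividing cells were tested with the library as a block. CPM is UMIs per 1000000 UMIs of the class in a library, and differences are log2 fold changes. Where D0 was compared with Ctrl, Ctrl and D0 libraries of the same number deviated together (r = 0.434, 0.229 and 0.186 across genes). Ctrl-3 correlated more with D0-2 (0.247) than with D0-3. The labels give no shared litter or day, so the pairing is a hint from the data alone. P-values measure the spread between libraries. Counting intervals and floors cover counting error alone.

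In simulated D0 and Ctrl counts (12224 genes), the test recovered 12% of 1.5-fold, 70% of 2-fold and 92% of 4-fold rises, and in simulated dividing cells (11178 genes) 52%, 98% and 100%. A difference of 1.5-fold between conditions could thus be missed. Named list genes were up to 5 called rises and 5 called falls per comparison at 20 CPM or more, and others named were chosen after their values were seen (Lcn2, Ltf, Cp and Slc7a11). Tf, of the lists, matched no symbol. Some genes that this rule selects are not reported here, but list counts and medians include them. The 7 genes and the lists were chosen with earlier results of these data known. Sequences were read from GRCm38 with GENCODE annotation. Alternatives were DESeq2 1.42.0, other scaling, filters, clusterings and definitions of dividing cells, thinning to 2000 UMIs, a Cell Ranger version term, a replicate block, D2-3 included, cluster 11 left out and each library left out.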

Additional observations from a re-analysis of the deposited data

Results flagged for a closer look

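The difference between D0-1 and the Ctrl libraries was not the same in border-associated macrophage-like and non-dividing microglia-like cells: the interaction term of edgeR's quasi-likelihood test was 3.73 for Slc11a2 and −3.02 for Slc40a1 on the log2 scale. With D0-1 as the one D0 library, it measures no spread between D0 libraries and shows no effect of D0. The call of Slc11a2 was lost after thinning (1.97) and with the coarser clustering (0.83, adjusted p = 0.490), which put other cells into the class. That of Slc40a1 was lost at 10 cells per library (−1.63, adjusted p = 0.0755).

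Library D2-3 was left out of the comparisons other than as an alternative. In its non-dividing microglia-like cells, 3 genes had a counting interval above every Ctrl library. Fth1 was at 6784 CPM (Poisson interval 6518 to 7058, highest Ctrl library 4133), Ftl1 at 4469 CPM (4254 to 4693, highest Ctrl library 4071) and Slc11a1 at 260 CPM (210 to 318, highest Ctrl library 174). Tfrc was at 19.3 CPM, with an interval (7.77 to 39.8) that includes the highest Ctrl library (8.84), and Slc40a1 was at 8.29 CPM (1.71 to 24.2), below every Ctrl library. The intervals cover counting error in 54 cells and no difference between animals.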

How the results depend on the processing

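Of 830 values of the 7 genes under the alternatives, 735 kept their direction and their side of the threshold, and 56 changed sign, none of them where the reported value was called and 48 where it was under 0.25 in size. The cause of these changes was not tested. In D0 against Ctrl, the log2 difference of Slc11a2 became −0.014 with dividing cells included and −0.12 after thinning. Tfrc became 0.033 with DESeq2, 0.12 with dividing cells included and 0.027 with unnamed low-UMI clusters added. Hmox1 became 1.23 with a Cell Ranger version term, 0.0046 with dividing cells set by 1 mitotic gene, 0.0085 with the replicate block, 0.017 without cluster 11 and 0.025 after thinning. In D2 against Ctrl, Slc40a1 became −0.090 with the version term, −0.25 with D2-3, −0.19 with dividing cells and −0.016 with the block, Slc11a2 became −0.0013 with dividing cells, Tfrc −0.043 without cluster 11, and Hmox1 became 1.06 with the version term and 0.23 with the block. In D2 against D0, Slc11a1 became −0.0020 with 1 mitotic gene and −0.0048 with the block, and Hmox1 0.22 with the block. In dividing against other cells, Fth1 became 0.016 with D2-3, Ftl1 0.085 in D2 libraries alone and 0.030 after thinning, and Tfrc 0.034 without an upper UMI limit, 0.27 without cluster 11 and 0.50 in D0 libraries alone. In the interaction, Ftl1 became −0.086 at 10 cells per library and −0.41 with the coarser clustering, and Tfrc −0.51 with the latter. With each library left out in turn, D0 against Ctrl ranged from −0.10 to 0.21 for Slc11a2, −0.56 to 0.23 for Tfrc and −0.47 to 0.29 for Hmox1. D2 against Ctrl then ranged from −0.48 to 0.55 for Slc40a1, −1.13 to 1.55 for Tfrc and −0.56 to 0.15 for Hmox1. D2 against D0 ranged from −0.22 to 0.0050 for Fth1, −0.35 to 0.15 for Ftl1, −0.097 to 0.15 for Slc11a1, −0.050 to 0.26 for Slc11a2, −1.13 to 1.56 for Tfrc and −0.47 to 0.26 for Hmox1. In border-associated macrophage-like cells, Slc11a1 ranged from −0.067 to 0.32 in D0, Hmox1 from −1.01 to 0.34 in D0, and Slc11a1 from −0.57 to 0.45 in D2. Tfrc ranged from −0.38 to 0.46 in dividing cells and Hmox1 from −0.57 to 0.13 in the interaction. The number of genes called in D0 against Ctrl (1068) was 447 with the version term, 495 with D2-3, 1605 with DESeq2, 2440 with dividing cells and 687 after thinning, and 424 to 1154 with a library left out. In D2 against Ctrl (1290) it was 404, with the version term, 2293, with dividing cells, and 1995, without cluster 11, and 583 to 1917 with a library left out. In D2 against D0 (0) it was 19 with DESeq2 and 10 with no filter on low counts. In dividing cells (4918) it was 1207 in D2 libraries alone and 3196 after thinning. In the interaction (1186) it was 386 at 10 cells, 569 with DESeq2, 344 without the library block and 435 after thinning. In border-associated macrophage-like cells, D0 (76) had 0 with the block and 0 to 586 with a library left out, and D2 (0) had 3 and 0 to 96. The alternatives planned for these cells at 20 cells per library could not be fitted, since only 1 D0 and 1 D2 library remained. The block changed no call of the 7 genes other than those of Ftl1 and Slc11a2 given above. Same-numbered libraries of D2 had r = 0.032 and 0.092 with Ctrl and −0.183 and 0.289 with D0. Deviations of D2-1 and D2-2 from their mean mirror each other, so a pairing of D2 could not be judged.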
